A study of Homo sapiens with 6 samples.

Results

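Mitochondrial ribosomal proteins are the protein parts of the ribosome inside mitochondria, and their genes carry symbols that start with MRPL for the large subunit or MRPS for the small subunit. Every probe set with exactly 1 annotated gene symbol of that form was taken, which gave 166 of the 49395 probe sets on the array and 75 of the 18132 genes they name. One of the 75 genes, MRPL20-AS1, is an antisense RNA, so 74 genes for ribosomal proteins remained, 49 of the large and 25 of the small subunit. The RNA came from HMEC-1, an immortalised line of human microvascular endothelial cells, which was in serum-free medium during the experiment. For 3 samples the medium held EPC-Exos at 1e+11 particles per mL for 24 hours, and for the other 3 it held the same volume of PBS for the same time. The abbreviation EPC-Exos, not spelled out in the labels, stands for exosomes (small membrane vesicles that cells release) of endothelial progenitor cells, as is known of the study. The arrays were Affymetrix 3′ expression arrays, the deposited values are log2 signals, and the question is how the vesicles change gene expression in the recipient cells.

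The mitochondrial ribosome makes only the few proteins that mitochondrial DNA encodes, all of them core subunits of the respiratory chain and of ATP synthase. Its ribosomal RNAs come from mitochondrial DNA, while all of its proteins are made from nuclear genes in the cytosol and imported. Many of these proteins have a counterpart in the bacterial ribosome, and others are found only in mitochondria. Some names mislead: the proteins of MRPS30 and MRPS18A sit in the large subunit and are counted there. Endothelial cells draw much of their ATP from glycolysis, and their mitochondria are known also for roles in signalling and biosynthesis.

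The promoters are shown because the nuclear genes for mitochondrial proteins are known to share recognition sequences of a few transcription factors. RefSeq promoter sequences of GRCh38.p14, from 250 bases before to 50 bases after the start of transcription, were matched by symbol for 67 of the 74 genes. MRPL2, MRPL10, MRPL13, MRPL15, MRPL21, MRPL35 and MRPS28 had no entry. A gene with several annotated starts was counted once, and it counted as holding a string when any of its promoters did. The number of starts per gene was not allowed for. The letters CCGGAAG, a core of ETS sites such as those bound by GABPA, stood on either strand in 29 of the 67 promoters (43.3%), against 16.5% of 15842 protein-coding genes. The share was 32.3% of 62 respiratory chain and ATP synthase genes and 35.8% of 53 cytosolic ribosomal protein genes, and no share was tested against another. Upstream stretches of 4 genes that were higher after EPC-Exos are printed with these letters, or their reverse complement, in capitals.
MRPS12, chr19:38930834-38930953, plus strand: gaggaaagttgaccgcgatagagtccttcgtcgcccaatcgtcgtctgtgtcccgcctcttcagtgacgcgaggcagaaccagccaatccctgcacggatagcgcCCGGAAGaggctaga
MRPL3, chr3:131502972-131503091, minus strand: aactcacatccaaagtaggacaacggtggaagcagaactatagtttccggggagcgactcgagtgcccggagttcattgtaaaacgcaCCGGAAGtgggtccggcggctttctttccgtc
MRPL47, chr3:179604639-179604758, minus strand: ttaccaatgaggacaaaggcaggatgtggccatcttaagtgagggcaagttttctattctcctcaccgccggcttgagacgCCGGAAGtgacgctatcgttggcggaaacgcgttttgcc
MRPS34, chr16:1773135-1773254, minus strand: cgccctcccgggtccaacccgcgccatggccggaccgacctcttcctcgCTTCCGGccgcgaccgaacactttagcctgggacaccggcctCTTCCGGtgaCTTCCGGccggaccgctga
MRPL3, MRPL47 and MRPS34 were chosen for display after their values were seen.

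The same letters were also present in promoters of genes that did not pass the test. They stood in 14 of 39 promoters of genes that were higher after EPC-Exos and in 14 of 25 of those that passed in neither direction, shares that were not tested against each other. MRPL27, a large subunit gene whose signal did not pass (0.03 ± 0.044, SE) and that was chosen for display for that reason, carries the letters at 2 places.
MRPL27, chr17:50373185-50373304, minus strand: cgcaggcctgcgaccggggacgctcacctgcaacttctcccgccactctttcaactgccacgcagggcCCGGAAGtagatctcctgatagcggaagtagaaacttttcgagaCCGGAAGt

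The letters AAGATGGCG, known as a YY1 site near the start of many housekeeping genes, stood in 12 of the 67 promoters (17.9%), against 3.21% of all protein-coding genes, 12.9% of the respiratory chain and ATP synthase genes and 9.43% of the cytosolic ribosomal protein genes. They were found in 8 of the 39 promoters of genes that were higher, in 4 of 25 of those that did not pass, and in 0 of 3 of those that were lower. The 30 bases around this string are printed for MRPS30 and MRPL42, which are among the largest rises below, and for MRPL46, which did not pass and was chosen for that.
MRPS30, chr5:44808949-44808978, plus strand: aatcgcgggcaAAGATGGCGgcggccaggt
MRPL42, chr12:93467511-93467540, plus strand: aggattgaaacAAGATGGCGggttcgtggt
MRPL46, chr15:88467362-88467391, minus strand: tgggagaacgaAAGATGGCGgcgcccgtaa

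The letters GCATGCGC, part of the palindrome that NRF1 binds, were rarer in these promoters than the ETS and YY1 strings. They stood in 6 of 67 (8.96%), above the 4.89% of all protein-coding genes. The share was below the 21.0% of the respiratory chain and ATP synthase genes. They were found in 5 of the 39 promoters of genes that were higher, in 1 of 25 of those that did not pass, and in 0 of 3 of those that were lower. A longer form of this string, with 10 letters, stood in 1.49% of the 67 promoters, against 1.99% of all protein-coding genes. The E-box CACGTG, which MYC and related factors bind, stood in 9 of 67 (13.4%) against 10.9% of all. A total of 24 of the 67 promoters held none of the 4 strings. The mean GC content of the 67 was 61.0%, against 61.2% over all protein-coding genes. MRPL52 and MRPL17 are shown with the NRF1 string, and in MRPL52 also the YY1 string, in capitals.
MRPL52, chr14:22829687-22829886, plus strand: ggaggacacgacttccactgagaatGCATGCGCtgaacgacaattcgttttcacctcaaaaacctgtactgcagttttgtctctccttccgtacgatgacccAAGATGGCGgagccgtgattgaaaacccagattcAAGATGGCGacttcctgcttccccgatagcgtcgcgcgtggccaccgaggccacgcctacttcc
MRPL17, chr11:6683341-6683460, minus strand: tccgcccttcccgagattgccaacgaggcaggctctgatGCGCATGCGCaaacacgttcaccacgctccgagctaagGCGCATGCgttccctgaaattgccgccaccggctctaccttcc
The string and its reverse complement overlap within the first run of capitals of MRPL17. Each match is only a run of letters in this window, and binding was not measured.

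After EPC-Exos most of the mitochondrial ribosomal protein genes gave higher signals. Of the 74 genes, 45 rose, 3 fell and 26 passed in neither direction at a Benjamini-Hochberg adjusted p under 0.05 in limma's fit over 11715 genes. Among all genes tested, 21.7% were higher and 27.3% lower, or 49.1% together. The changes were modest: the genes that rose did so by 1.13 to 1.60-fold, with a median of 1.27-fold. Under the rule of the study's design text, a change of at least 1.5-fold and an unadjusted p under 0.05, 3 of the 74 genes were higher and 0 lower, against 3.94% and 5.96% of all genes tested. In limma's test against a 1.2-fold change 15 were higher and 0 lower, against 6.6% and 9.12%. In bulk RNA a different share of cells and a different amount of RNA per cell cannot be told apart, and RNA levels do not show protein or ribosome levels.

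The median log2 change of the 74 genes was 0.25, while that of all genes tested was -0.011. A change is the EPC-Exos mean minus the PBS mean in log2 units, over 3 arrays each, and ± after it is the moderated standard error (SE) from limma. The antisense RNA MRPL20-AS1 did not pass (-0.10 ± 0.080). With it, all 75 genes passed the filter on low signal and lay above the highest Tag control, a probe set that matches no human transcript, in both groups. On all 3 EPC-Exos arrays 52 of the 75 genes lay above all 3 PBS arrays, 3 lay below and 20 overlapped. Over all tested genes the shares without overlap were 25.5% above and 30.2% below.

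**Figure D1:**
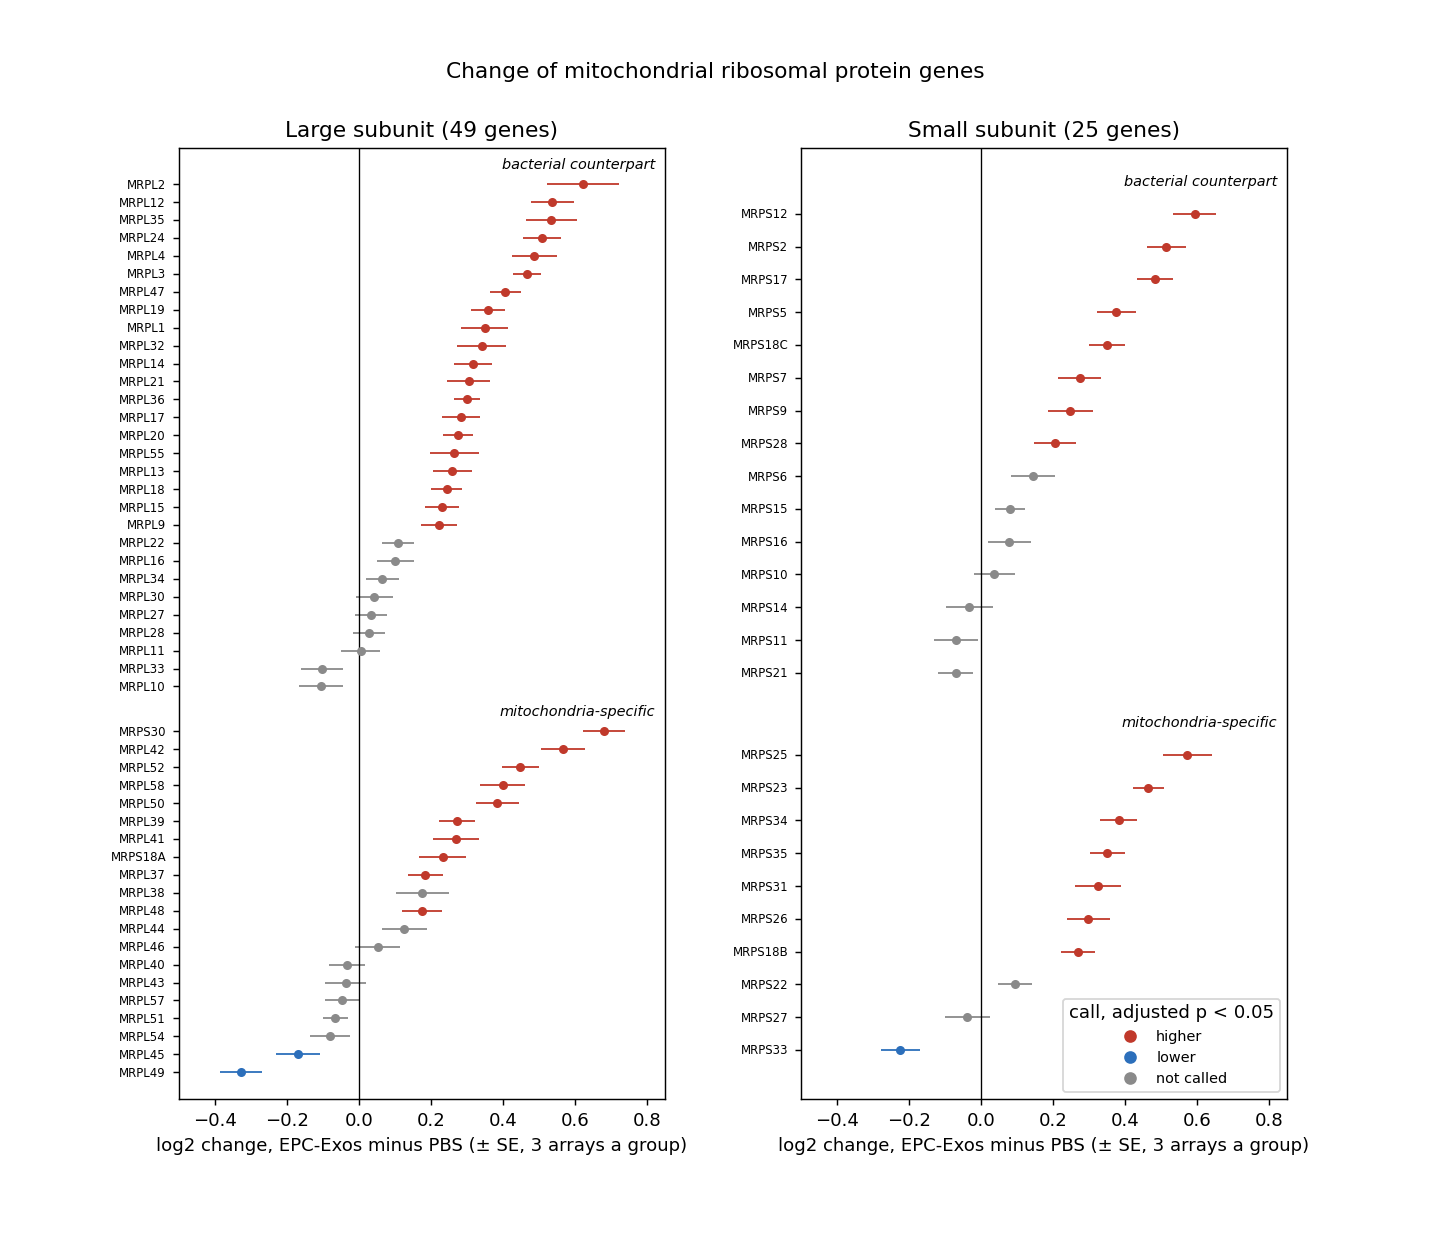
Log2 change (EPC-Exos minus PBS, x axis) of each of the 74 mitochondrial ribosomal protein genes, split by subunit and by whether the protein has a bacterial counterpart; points are limma estimates from 3 arrays a group, bars ± SE and colours the call. The 45 genes called higher lie between 0.18 and 0.68, the 3 called lower between -0.33 and -0.17.

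The 2 subunits gave similar values. In the large subunit 30 of 49 genes rose and 2 fell, with a median log2 change of 0.24. In the small subunit 15 of 25 rose and 1 fell, with a median of 0.27. Genes whose proteins have a bacterial counterpart rose in 28 of 44 cases and fell in 0, with a median of 0.26, but 1 fell without PBS replicate 3 and 1 with the mean of probe sets. Those found only in mitochondria rose in 17 of 30 cases and fell in 3, with a median of 0.21. Over all genes tested the shares were 21.7% higher and 27.3% lower. The shares of the subunits and of the kinds of protein were not tested against each other.

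Averaged over the 74 genes, the mean log2 signal on the PBS arrays was 10.05, 10.09 and 10.11. On the EPC-Exos arrays it was 10.29, 10.32 and 10.30. Every EPC-Exos array was thus above every PBS array, by more than the spread within either group. The mean over all 11715 tested genes on the same arrays went from 8.50 ± 0.024 to 8.47 ± 0.027 (SD, n = 3).

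Large subunit genes held the largest rise. MRPS30, whose protein lies in the large subunit and has no bacterial counterpart, had log2 signals of 8.98, 9.00 and 9.05 with PBS. With EPC-Exos they were 9.71, 9.70 and 9.66, and the change was 0.68 ± 0.058, or 1.60-fold (adjusted p = 6.4e-08 in limma with Benjamini-Hochberg adjustment). The groups were far apart and tight. MRPL2, a conserved protein close to the centre where peptide bonds are made, had 6.91, 7.20 and 7.36 in the PBS group and 7.73, 7.82 and 7.80 in the EPC-Exos group. Its change was 0.62 ± 0.10, the first PBS array being lower than the other two, and its standard error was the largest of the 74. MRPL42, a protein found only in mitochondria, had 9.88, 9.79 and 9.64 with PBS and 10.33, 10.37 and 10.32 with EPC-Exos, a change of 0.57 ± 0.062 with no overlap.

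MRPL12, a stalk protein that also binds the mitochondrial RNA polymerase, had log2 signals of 9.51, 9.61 and 9.67 with PBS. With EPC-Exos it had 10.09, 10.19 and 10.12, so it rose by 0.54 ± 0.059, with no overlap. MRPL35 (0.54 ± 0.072), another conserved large subunit protein, was likewise above the PBS range on every EPC-Exos array, at 8.87, 9.05 and 9.06 against 8.48, 8.38 and 8.51. MRPL58, a peptidyl-tRNA hydrolase that also forms part of the large subunit and is known for releasing stalled ribosomes, had 8.91, 8.86 and 8.79 with PBS. With EPC-Exos it had 9.22, 9.27 and 9.27 and rose by 0.40 ± 0.062. In all 3 genes the lowest EPC-Exos array lay above the highest PBS array.

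The 3 genes with the brightest probe sets, which does not rank their levels, did not move alike. MRPL51 (-0.07 ± 0.034) overlapped between groups and did not pass. It was called lower with quantile scaling (-0.10, adjusted p = 0.0244), with cyclic loess scaling (-0.09, adjusted p = 0.0459) and without PBS replicate 3 (-0.09, adjusted p = 0.0332) in limma. MRPL36 (0.30 ± 0.036) and MRPL18 (0.24 ± 0.044), which has a 5S RNA-binding counterpart in bacteria, rose without overlap. MRPL36 had 12.13, 12.08 and 12.09 with PBS and 12.36, 12.41 and 12.44 with EPC-Exos.

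In the small subunit MRPS12, the counterpart of the bacterial decoding-centre protein that streptomycin resistance mutations alter, rose most. Its signals were 9.78, 9.89 and 10.02 on the PBS arrays and 10.49, 10.49 and 10.49 with EPC-Exos. The change was 0.59 ± 0.059, or 1.51-fold (adjusted p = 3.9e-07 in limma with Benjamini-Hochberg adjustment), and the EPC-Exos arrays differed less among themselves than the PBS arrays did. MRPS25, found only in mitochondria, went from 8.70, 8.85 and 8.88 to 9.43, 9.34 and 9.39, a rise of 0.57 ± 0.067. MRPS2, a conserved protein, went from 10.09, 10.17 and 10.25 to 10.63, 10.71 and 10.71, a rise of 0.51 ± 0.054. In each of the 3 genes no array of one group entered the range of the other.

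**Figure D2:**
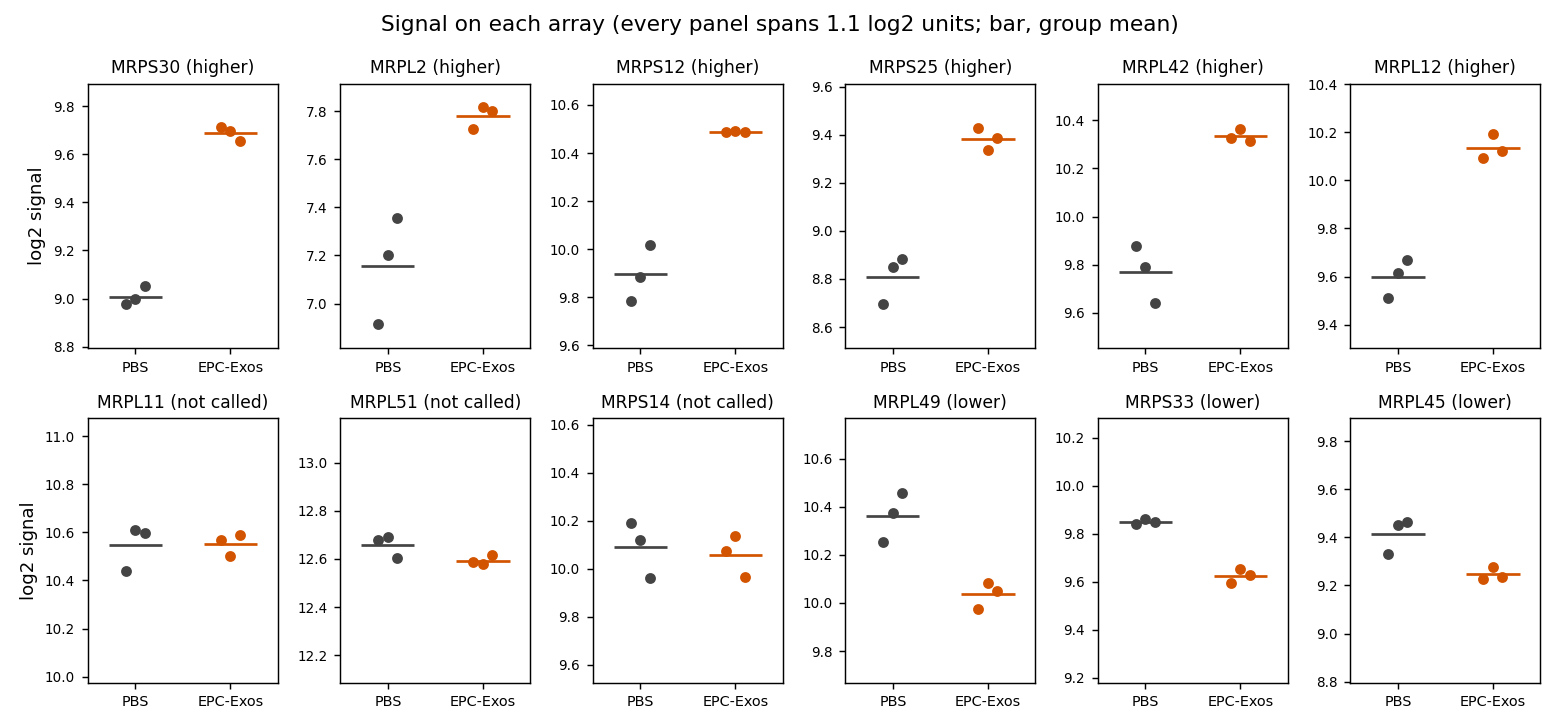
Log2 signal (y axis, each panel spanning the same number of log2 units) on every array for 12 mitochondrial ribosomal protein genes; dots are arrays, lines are group means. The upper row shows 6 genes that rose, without overlap between groups, the lower row 3 that did not pass and the 3 that fell.

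The 3 related genes MRPS18A, MRPS18B and MRPS18C encode proteins that share a bacterial relative but sit at different places of the ribosome. MRPS18A and MRPS18B lie where the bacterial ribosome has no such protein and are counted among those found only in mitochondria. MRPS18A, of the large subunit, rose by 0.23 ± 0.065, and the call was lost when the mean of its probe sets was used (0.16, adjusted p = 0.0593 in limma). MRPS18B rose by 0.27 ± 0.047, from 10.57, 10.53 and 10.48 to 10.81, 10.82 and 10.77. All its probe sets end in _x_at, a kind that can bind transcripts of related genes. MRPS18C, the closest counterpart of the bacterial protein, rose by 0.35 ± 0.050, from 10.21, 10.22 and 10.26 to 10.56, 10.55 and 10.64. None of the 3 overlapped between groups. MRPS31 (0.33 ± 0.064), a small subunit protein found only in mitochondria, also rose, but with the mean of its probe sets it did not pass (0.11, adjusted p = 0.215 in limma).

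The 3 genes that fell are all of the kind found only in mitochondria. For MRPL49 the PBS arrays gave 10.25, 10.37 and 10.46 and the EPC-Exos arrays 9.98, 10.08 and 10.05. It fell by 0.33 on the log2 scale (SE 0.059, adjusted p = 0.00022 in limma with Benjamini-Hochberg adjustment), with no overlap. MRPS33 went from 9.84, 9.86 and 9.85 to 9.60, 9.65 and 9.63, a change of -0.22 ± 0.054, again with no overlap.

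MRPL45, whose protein is known to tie the ribosome to the inner membrane, had 9.33, 9.45 and 9.46 with PBS and 9.23, 9.28 and 9.24 with EPC-Exos. Its change of -0.17 ± 0.061 (adjusted p = 0.030 in limma) rests on each array in turn except PBS replicate 1. Without PBS replicate 2 or 3 the adjusted p was 0.0817 or 0.0908, and without EPC-Exos replicate 1, 2 or 3 it was 0.0993, 0.0511 or 0.0932. Without probe sets of the kinds ending _x_at and _s_at, which can bind transcripts of related genes, the MRPL45 change was -0.08 (adjusted p = 0.367), and with arrays centred on the tested genes it was -0.12 (adjusted p = 0.09). The E-box stood in all 3 promoters, a feature noticed after the values were seen and in 3 genes only. It also stood in 5 of 39 promoters of genes that rose and in 1 of 25 of those that did not pass, against 10.9% of all protein-coding genes. The 60 bases around it are printed with CACGTG in capitals.
MRPL49, chr11:65121933-65121992, plus strand: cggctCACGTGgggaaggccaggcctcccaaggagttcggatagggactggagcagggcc
MRPL45, chr17:38297008-38297067, plus strand: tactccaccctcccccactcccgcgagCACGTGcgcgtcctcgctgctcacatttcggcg
MRPS33, chr7:141014750-141014809, minus strand: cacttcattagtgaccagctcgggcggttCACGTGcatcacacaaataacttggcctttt

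The 26 protein genes that did not pass had changes between -0.10 and 0.18, of which 15 were positive and 11 negative. The smallest change was in MRPL11, a conserved stalk-base protein (0.005 ± 0.055), with 10.44, 10.61 and 10.60 against 10.57, 10.50 and 10.59. MRPL28 (0.03 ± 0.045) and MRPS14 (-0.03 ± 0.065), both conserved, also overlapped between groups. In 7 of the 26 the groups did not overlap although the test was missed. The split is not sharp, since 14 of the 26 passed in at least 1 alternative setting, 10 as higher and 4 as lower. MRPL30, MRPL38 and MRPS6 were named after their values were seen. MRPL30 was at 0.04 and passed at 0.45 without the probe sets ending _x_at and _s_at (adjusted p = 2.48e-06) and at 0.17 with the mean of probe sets (adjusted p = 0.00654, in limma). MRPL38 and MRPS6 each passed as higher in 7 settings. A p that misses the threshold does not show that these genes were unchanged.

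Many of the genes have several probe sets, and most of these gave the same direction. Of the 166 probe sets, 150 passed the filter on low signal. In the fit over 29576 probe sets 45.7% were called in either direction, and 80 of the 150 were higher and 11 lower. Probe sets of the same gene are not independent readings, and those of MRPL45 ending _s_at gave changes of -0.1689 and -0.1695. Among 42 genes with at least 2 tested probe sets, all changes were positive in 28, all were negative in 8 and the signs were mixed in 6. In 17 of the 42 every tested probe set was called higher, and 0 genes had a probe set called higher beside one called lower. MRPL52, a large subunit gene named here after its values were seen, was higher in 5 of 5 probe sets, with changes from 0.27 to 0.48.

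The 6 genes with mixed signs were MRPL9, MRPL17, MRPL20, MRPS11, MRPS16 and MRPS17. MRPS17, a conserved small subunit protein, was represented by a probe set of the shared kind, which rose from 9.87, 9.89 and 9.88 to 10.38, 10.33 and 10.38 (0.48 ± 0.050). A further shared probe set of MRPS17 gave 0.52, while the 2 remaining ones, 1 of them also ending _x_at, gave -0.10 and -0.16 and did not pass. Without probe sets ending _x_at and _s_at the sign of its change was therefore turned, at -0.16 (adjusted p = 0.26 in limma).

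MRPL17, which rose by 0.28 ± 0.052, and MRPL20, which rose by 0.28 ± 0.042, were also represented by shared probe sets. Their remaining tested probe sets had changes of -0.006 and -0.10 and did not pass. MRPL9 rose by 0.22 ± 0.050, and its mean over all probe sets did not (0.03, adjusted p = 0.787 in limma). MRPS11 (-0.07 ± 0.060) did not pass, but a probe set of low signal rose by 0.84 ± 0.11, from 5.99, 5.91 and 6.29 to 6.77, 7.00 and 6.95. In MRPS14 the brightest probe set did not pass, while 2 others were called lower, at -0.61 and -0.21. In MRPL57, chosen after its values were seen, 3 of 4 probe sets were called lower. MRPS16 had 3 probe sets with changes from -0.06 to 0.13, and none passed.

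**Figure D3:**
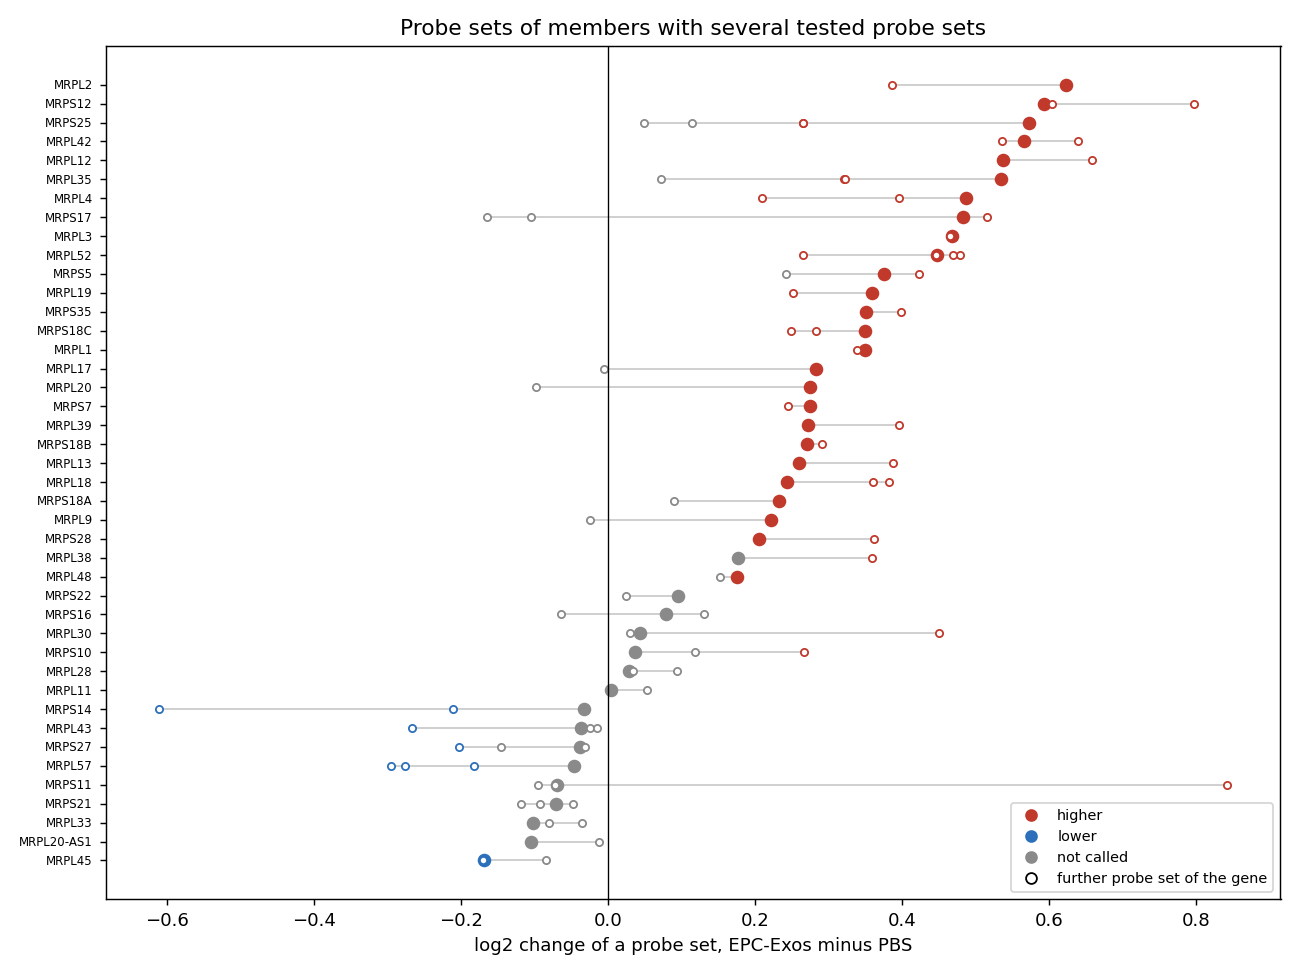
Log2 change (x axis, EPC-Exos minus PBS) of every tested probe set of the 42 genes that have at least 2; filled points are the probe sets of highest signal, which represent the gene, open points the other probe sets, and colours the call. In MRPS17 2 probe sets lie near 0.5 and 2 below 0, and in MRPS11 1 probe set lies at 0.84.

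Several genes known to belong to the mitochondrial ribosome, or once named as part of it, lay outside the choice by symbol. The symbol MRPL23 is listed with 2 gene IDs, and its probe set had a change of 0.21 ± 0.056 (adjusted p = 0.0045 in limma over probe sets). Probe sets shared by MRPS24 and a read-through gene (0.23 ± 0.044) and by MRPL53 and CCDC142 (-0.24 ± 0.058) cannot be given to 1 gene. The gene once named MRPS36 is now KGD4 and is not counted here among the ribosomal proteins. Its brightest probe set did not pass (-0.02 ± 0.051). Another KGD4 probe set was called lower (-0.25 ± 0.094, adjusted p = 0.042 in limma over probe sets), and the remaining one did not pass (-0.16 ± 0.10). Ribosomal proteins under other names were DAP3 (0.35 ± 0.045) and PTCD3 (0.32 ± 0.064), of the small subunit, CHCHD1 (0.18 ± 0.049), also of the small subunit, and GADD45GIP1 (0.34 ± 0.053), of the large subunit. All 4 rose without overlap between groups, and PTCD3 did not pass with the mean of its probe sets (0.06, adjusted p = 0.467 in limma).

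The genes that build and serve the mitochondrial ribosome were read from lists written from textbook knowledge with earlier results of these data known. Among all genes tested 21.7% rose and 27.3% fell, or 49.1% together. Of 25 tested assembly factors, 9 rose (36%) and 2 fell (8%), or 44% together, with a median log2 change of 0.11. The count of falls was 4 without PBS replicate 1 and 1 without EPC-Exos replicate 3. FASTKD2, which binds the large ribosomal RNA, went from 9.21, 9.03 and 9.20 to 9.82, 9.79 and 9.86 (0.68 ± 0.063). MRM1 (0.65 ± 0.13) and MRM3 (0.55 ± 0.062), which methylate that RNA, rose as well. Of 12 translation factors 6 rose (50%) and 0 fell, with a median of 0.14, and 9 rose without the shared probe sets. The initiation factor MTIF2 (0.36 ± 0.065), the recycling factor MRRF (0.33 ± 0.071) and TACO1, the activator of COX1 translation (0.33 ± 0.068), had the largest rises.

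Of 19 aminoacyl-tRNA synthetases of mitochondria, which charge its tRNAs, 8 rose (42.1%) and 2 fell (10.5%), against 21.7% and 27.3% of all genes tested. Their median was 0.11, but 5 rose without EPC-Exos replicate 2. MARS2, which charges methionine tRNA, went from 7.45, 7.52 and 7.37 to 8.50, 8.54 and 8.52, a rise of 1.07 ± 0.073 or 2.10-fold. NARS2, for asparagine, rose by 0.46 ± 0.062. EARS2, for glutamate, rose by 0.26 ± 0.087, but did not pass without PBS replicate 1 (adjusted p = 0.0939), without EPC-Exos replicate 2 (adjusted p = 0.109) or without the shared probe sets (adjusted p = 0.687, in limma). The 2 that fell, RARS2 for arginine (-0.25 ± 0.053) and WARS2 for tryptophan (-0.22 ± 0.077), were picked out with their values in view, and 1 in place of 2 fell without PBS replicate 3 or without EPC-Exos replicate 1.

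Of 19 genes for mitochondrial transcription and RNA processing 15 rose (78.9%) and 0 fell, with a median of 0.32. The shares over all genes tested were 21.7% higher and 27.3% lower. PNPT1, the polynucleotide phosphorylase of mitochondria, which is also known as an interferon-induced gene, went from 9.76, 9.61 and 9.65 to 10.82, 10.81 and 10.90 (1.17 ± 0.055). The RNA polymerase POLRMT (0.56 ± 0.071) and the DNA helicase TWNK (0.55 ± 0.080) rose too. Of 16 protein import genes 13 rose (81.25%) and 1 fell (6.25%), with a median of 0.31. The rises were led by the outer membrane channel TOMM40 (0.65 ± 0.080), the small chaperone TIMM8A (0.60 ± 0.10) and the inner membrane receptor TIMM50 (0.56 ± 0.056). Of 11 chaperones and proteases of the matrix and inner membrane 9 rose (81.8%) and 0 fell, with a median of 0.38. GRPEL1 (0.92 ± 0.055), HSPE1 (0.70 ± 0.063) and HSPD1 (0.57 ± 0.037), all helpers of protein folding, rose most.

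**Figure D4:**
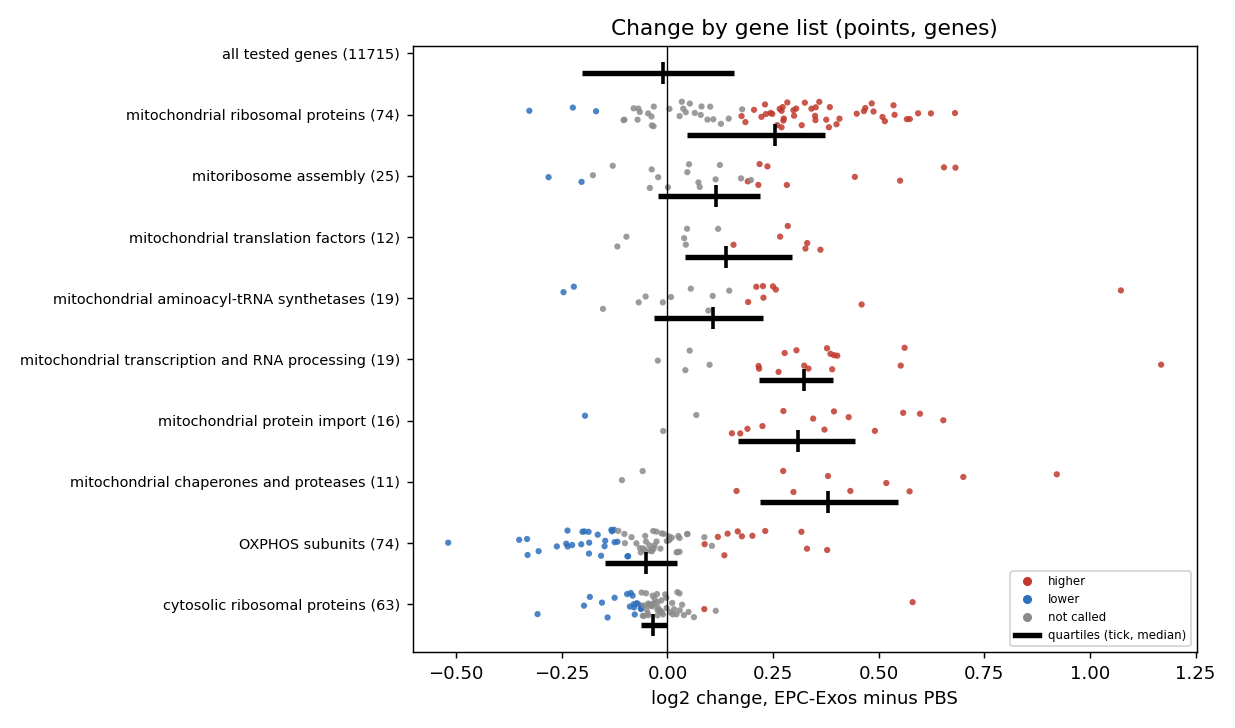
Log2 change (x axis, EPC-Exos minus PBS) of the tested genes of 9 lists and quartiles over all 11715 tested genes; points are genes coloured by call, thick lines run from the lower to the upper quartile and the tick is the median. The median of the mitochondrial ribosomal proteins is at 0.25, that of all tested genes at -0.011 and that of the oxidative phosphorylation subunits at -0.052.

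Known regulators of nuclear genes for mitochondria went both ways. PPRC1, a relative of the coactivator PGC-1 alpha, rose by 0.79 ± 0.081, from 7.51, 7.59 and 7.77 to 8.35, 8.46 and 8.44. MYC rose by 0.70 ± 0.046, from 10.82, 10.72 and 10.82 to 11.50, 11.50 and 11.46, and the nuclear receptor ESRRA rose by 0.52 ± 0.071. TFAM, which packages mitochondrial DNA, rose by 0.22 ± 0.071, but did not pass without PBS replicate 2 (adjusted p = 0.0651), EPC-Exos replicate 2 (adjusted p = 0.0669) or EPC-Exos replicate 3 (adjusted p = 0.0826, all in limma).

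GABPA, the ETS factor named above, fell by 0.26 on the log2 scale (SE 0.078), from 8.79, 8.51 and 8.66 to 8.34, 8.47 and 8.37. Its call was lost without EPC-Exos replicate 1 (adjusted p = 0.0532 in limma). NRF1 (0.13 ± 0.086) and YY1 (0.006 ± 0.058) overlapped between groups and did not pass. PPARGC1B (0.21 ± 0.10) did not pass either, though it did without PBS replicate 3 (adjusted p = 0.0497), and with arrays centred on the tested genes both PPARGC1B (adjusted p = 0.0369) and NRF1 (adjusted p = 0.0494, in limma) passed. PPARGC1A, the coactivator PGC-1 alpha, was below the filter, at 3.83 ± 0.26 and 3.66 ± 0.12 (SD, n = 3). These are RNA levels, and factor activity was not measured.

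The proteins that the mitochondrial ribosome makes join nuclear-encoded subunits in the respiratory chain, and the genes of those subunits are given beside it. Of 74 tested subunit genes of complexes I to IV and ATP synthase, 11 rose (14.9%) and 27 fell (36.5%). Of all genes tested 21.7% rose and 27.3% fell. The median log2 change of the 74 was -0.052. The direction of that median depends on the scaling: with arrays centred on the tested genes it was 0.002, with 13 higher and 17 lower, while the median of the 75 MRPL and MRPS genes was then 0.30, with 53 higher and 2 lower. Complex I had 6 higher and 11 lower of 36 (16.7% and 30.6%). Among the lower were NDUFB1 (-0.52 ± 0.045), NDUFA2 (-0.35 ± 0.052) and NDUFS8 (-0.33 ± 0.049, with -0.13 and adjusted p = 0.0734 in limma for the mean of its probe sets).

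Complex IV, the cytochrome oxidase, had 0 higher and 7 lower of 10, and 6 lower with that centring. COX8A (-0.20 ± 0.039), COX5B (-0.20 ± 0.040) and COX6B1 (-0.20 ± 0.035) each fell without overlap. Complex II had 0 higher and 2 lower of 3, but 1 lower without PBS replicate 2 or 3 or EPC-Exos replicate 1 or 2. Complex III had 2 of each among 8, CYC1, cytochrome c1, having risen by 0.32 ± 0.049. Its 2 lower calls became 0 without PBS replicate 3, EPC-Exos replicate 1 or EPC-Exos replicate 3 and 1 without PBS replicate 2. With arrays centred on the tested genes complex II had 1 lower, complex III 0 and ATP synthase 2. ATP synthase had 3 higher and 5 lower of 17 (17.6% and 29.4%, against 21.7% and 27.3% of all genes tested). In it 2 genes that encode the same ring subunit went opposite ways, with ATP5MC1 at 0.38 ± 0.051 and ATP5MC2 at -0.33 ± 0.046. Probe sets named for the mitochondrially encoded ND1 (-0.03 ± 0.033), ND4 (0.03 ± 0.025) and COX3 (-0.09 ± 0.053), added after the data were seen, overlapped between groups and did not pass. Of these 3, 1 was called lower without PBS replicate 3 or without EPC-Exos replicate 2.

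The proteins of the cytosolic ribosome, a separate machine, did not share the rise. Of 63 tested genes 2 rose and 17 fell, with a median log2 change of -0.035. Their signals were very high, with a mean of 13.42 on the PBS arrays. That mean was 10.08 for the mitochondrial ribosomal proteins and 8.50 for all genes tested. The part of signal level in this contrast was not tested. The share that fell was close to the 27.3% of all genes tested. In this fit only the share that rose differed, being far below the 21.7% of all genes tested. With the mean of probe sets 10 of 63 were higher and 18 lower, beside 2549 and 2637 of 10535 genes. These changes are small, and their counts move with the processing. With arrays centred on the tested genes 7 were higher and 4 lower with a median of 0.019, with cyclic loess 1 was higher and 29 lower, and without the shared probe sets the counts were 4 and 4 with a median of 0.024. The counts were 1 higher and 9 lower without PBS replicate 2 and likewise without EPC-Exos replicate 3. There was 1 higher without PBS replicate 1, and there were 4 higher without PBS replicate 3. RPL35A (0.58 ± 0.051) was the largest rise and RPL13 (-0.31 ± 0.040) the largest fall. RPL3 (-0.18 ± 0.033) fell, but its sign was turned without the shared probe sets (0.21, adjusted p = 0.0837 in limma). Many of these genes have near-identical pseudogenes, so their probe sets are uncertain.

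**Figure D5:**
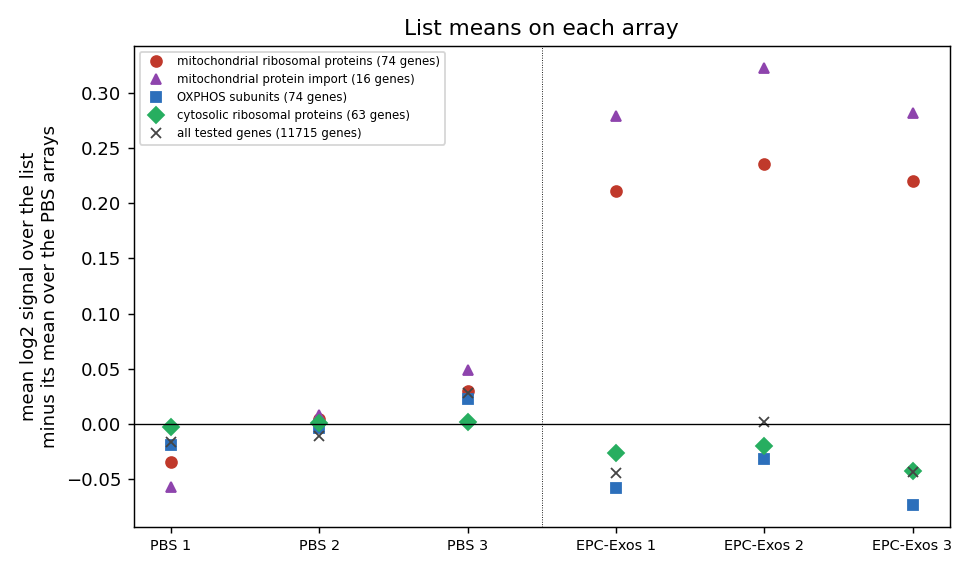
Mean log2 signal over each list on every array, minus the list's mean over the 3 PBS arrays (y axis), for 4 lists and all tested genes; each symbol is 1 array and list. The mitochondrial ribosomal proteins lie between 10.05 and 10.11 on the PBS arrays and between 10.29 and 10.32 on the EPC-Exos arrays in absolute terms, and the lists for oxidative phosphorylation and the cytosolic ribosome lie close to all tested genes.

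Facts of the arrays as a whole bear on these values as follows. Arrays of one group correlated at 0.997 and arrays of different groups at 0.988 to 0.989 over probe sets, and no pair shared over 24 identical values. The 3′, middle and 5′ control probe sets of ACTB and GAPDH, which show RNA integrity, moved as follows: all 3 ACTB probe sets were slightly higher on every EPC-Exos array than on any PBS array. ACTB was 13.81 and 13.92 at the 3′ end and 13.30 and 13.40 at the 5′ end (PBS and EPC-Exos means), while all 3 GAPDH probe sets overlapped between groups. The part of the ACTB difference in the results was not tested. Of 12 endothelial markers 7 were tested, of which 3 rose (ENG 0.81 ± 0.065, TIE1 0.48 ± 0.10 and ESAM 0.30 ± 0.10, the last not passing without PBS replicate 1 or EPC-Exos replicate 3, at adjusted p = 0.101 and 0.102 in limma), and 0 fell. Of all genes tested 21.7% rose and 27.3% fell. The summed linear signal of the endothelial list was 1964 to 2272 with PBS and 2745 to 2827 with EPC-Exos. CDH5, CLDN5, EMCN and TEK, defining endothelial markers, were at or below the Tag controls in both groups. The cell identity is taken from the sample labels and was not established from these markers.

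Of 14 markers of other cells 6 were tested, 1 rose (CD68 0.74 ± 0.072; 2 without EPC-Exos replicate 3) and 3 fell (ACTA2 -1.85 ± 0.14, PDGFRB -1.29 ± 0.12 and KRT18 -0.71 ± 0.040, the last named after its values were seen). Their sum was 6516 to 7118 with PBS and 4317 to 4542 with EPC-Exos, and CD14, CDH1, MS4A1, PROM1 and PTPRC were at or below the Tag controls in both groups. The shares over all genes tested were 21.7% higher and 27.3% lower. The part of the marker differences in the result for the ribosomal proteins was not tested. Nothing in the labels tells whether the replicates came from separate cultures. The p-values therefore cover the spread among these 6 arrays, and that spread may be technical. No date of culture or scan is given, and treatment and any batch of the same split cannot be told apart.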

How the data were processed

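The values used are log2 signals, as deposited by the authors, of every probe set on 6 arrays. MAS5, a summarisation method of Affymetrix, is named in the submitters' processing notes, and scaling and background correction are not given in the sources used here. Array medians lay between 6.25 and 6.34, so no further scaling was applied. GEO's platform annotation gave the gene names. Each gene was read from its probe set of highest mean signal and tested if that mean reached 5.45 (log2), the 40th percentile over probe sets other than controls. The highest mean of the 17 Tag controls was 4.97.

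The comparison used limma 3.58.1 under R 4.3.3 (lmFit and eBayes, variance trend, group as the only term), two-sided, with Benjamini-Hochberg adjustment over all 11715 genes tested. The script was tested on simulated data. Array number limits the precision.

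Members, lists and alternatives were chosen with earlier results of these data known, and 1 alternative, centring on the tested genes, was added after seeing the data. The genes named are the 8 largest rises and falls among called members, the 3 highest and 3 lowest in signal, the 3 smallest changes, 6 genes for their biology (the rule also held MRPS36, which the table lists as KGD4), members whose probe sets differ in sign, every regulator and every ribosomal protein with another name, and up to 3 called genes of each other list. Genes outside this rule are said to be named after their values were seen. Promoters and gene tables came from RefSeq.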

Additional observations from a re-analysis of the deposited data

How the results depend on the processing

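The settings tried were 4 scalings, 2 offsets, 2 filters, 2 ways of choosing probe sets, a fit without the trend, weighted arrays, a replicate block, each array left out, and 2 stricter call rules. In the 19 settings other than the call rules, 39 of the 48 called members kept their call wherever they were tested. MRPL41 and MRPS18B have only probe sets ending _x_at and were tested in 18 of the 19. They could not be tested without the _x_at and _s_at probe sets. MRPL41 was named after its values were seen. Of the other 9, MRPL15 (0.10, adjusted p = 0.233 in limma with the mean of probe sets) and MRPL48 were lost beside those given above, both named after their values were seen; MRPL48 had adjusted p = 0.0611 with the mean of probe sets, 0.0659 without EPC-Exos replicate 2 and 0.0652 without replicate 3. The signs of MRPL17 (-0.0057, adjusted p = 0.971), MRPL20 (-0.10, adjusted p = 0.42), MRPS17 (-0.16) and RPL3 (0.21) were turned without _x_at and _s_at probe sets.

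A fold of 1.5 with an unadjusted p under 0.05, the rule of the design text, called 3 members higher and 0 lower, and 461 genes higher and 698 lower (3.94% and 5.96%). The limma test against a fold of 1.2 called 15 members higher and 0 lower, and 773 and 1068 genes. With the mean of probe sets 5 members were lower and the median of the 75 was 0.185; those added were MRPL57 (-0.20, adjusted p = 0.0108) and MRPS14 (-0.28, adjusted p = 0.00052). With centring on the tested genes that median was 0.302, and 3249 genes were higher and 2670 lower, against 2545 and 3203. Leaving out each array gave 44 to 47 members higher, 2 to 4 lower and a median of 0.216 to 0.261.

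With the replicate block 48 members were higher and 3 lower, and 2724 and 3394 genes. Deviations of same-numbered arrays from their group means correlated at 0.21, 0.20 and 0.085. Each array correlated best with its own number. With 3 arrays a group such deviations depend on one another, so these correlations cannot decide whether the numbers are a pairing. The labels give none. The causes of these differences were not tested, apart from the choice of probe sets or arrays itself.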
